A study of Danio rerio with 11 samples.

Results

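In the developing zebrafish eye, 12 of 29387 genes with values formed a group that was high at 60 and 72 hours post fertilization (hpf). They were lower in the larval eyes sampled just before and just after. They were chosen from the deposited cRPKM values, a read density per gene length and sequencing depth, in the 8 larval eye libraries. In srrm3 mutant eyes and in wild-type (WT) eyes alike, the mean of 60 and 72 hpf plus 1 had to be at least 2 times the larger of the 48 hpf and 5 days post fertilization (dpf) values plus 1, and that mean had to be at least 5. The higher level at 60 and 72 hpf is therefore a property of the choice and carries no test. The larval eyes came from fish mutated in the eMIC domain of srrm3, with the allele tag 17A in the 5 dpf labels, and from fish WT for that domain, at 48, 60 and 72 hpf and 5 dpf, with 1 library per genotype and age. The 2 other tissues, neither used by the rule, were WT adult retinae in 2 libraries and WT heads of the AB strain at 24 hpf in 1 library. Each library holds RNA pooled from many eyes, several retinae or several heads, and the larvae of 48 to 72 hpf were genotyped from fin clips. srrm3 encodes a splicing regulator whose eMIC domain drives the inclusion of microexons in neurons.

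During these days the zebrafish retina completes its layers, its amacrine, bipolar and ganglion cells form synapses, and the photoreceptors start to build outer segments. The tissues around the retina mature in the same period: the muscles that move the eye, the cartilage that encloses it, the cornea and the pigment epithelium. An enucleated eye can carry any of these, so a bulk library does not show which cell a transcript came from.

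Library totals lay between 37724575 and 92560511 counts. Rod and cone phototransduction genes, which mark the photoreceptors, summed to 270, 2779, 4414 and 7113 cRPKM in mutant eyes of 48, 60 and 72 hpf and 5 dpf. In WT eyes they summed to 278, 3871, 4339 and 43677. The 5 dpf and adult libraries form a separate set, labelled as stranded and extracted with another kit than the younger eyes, so age and library set cannot be told apart in the drop after 72 hpf. The step up after 48 hpf lies within 1 set. At 48 hpf the 36 Hox genes of groups 4 to 13 summed to 206 cRPKM in mutant eyes and 162 in WT eyes. The 24 hpf head had 158. In mutant and WT eyes they summed to 75.6 and 15.6 at 60 hpf, and to 23.4 and 34.1 at 72 hpf. The liver genes likewise summed highest at 48 hpf among the eyes of each genotype. Whether other tissue in the 48 hpf eyes had a part in the step was not tested. The 5 dpf mutant library stands apart: 22 exocrine pancreas genes summed to 5722 cRPKM there and to 39.8 in the WT eyes of that age.

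**Figure D1:**
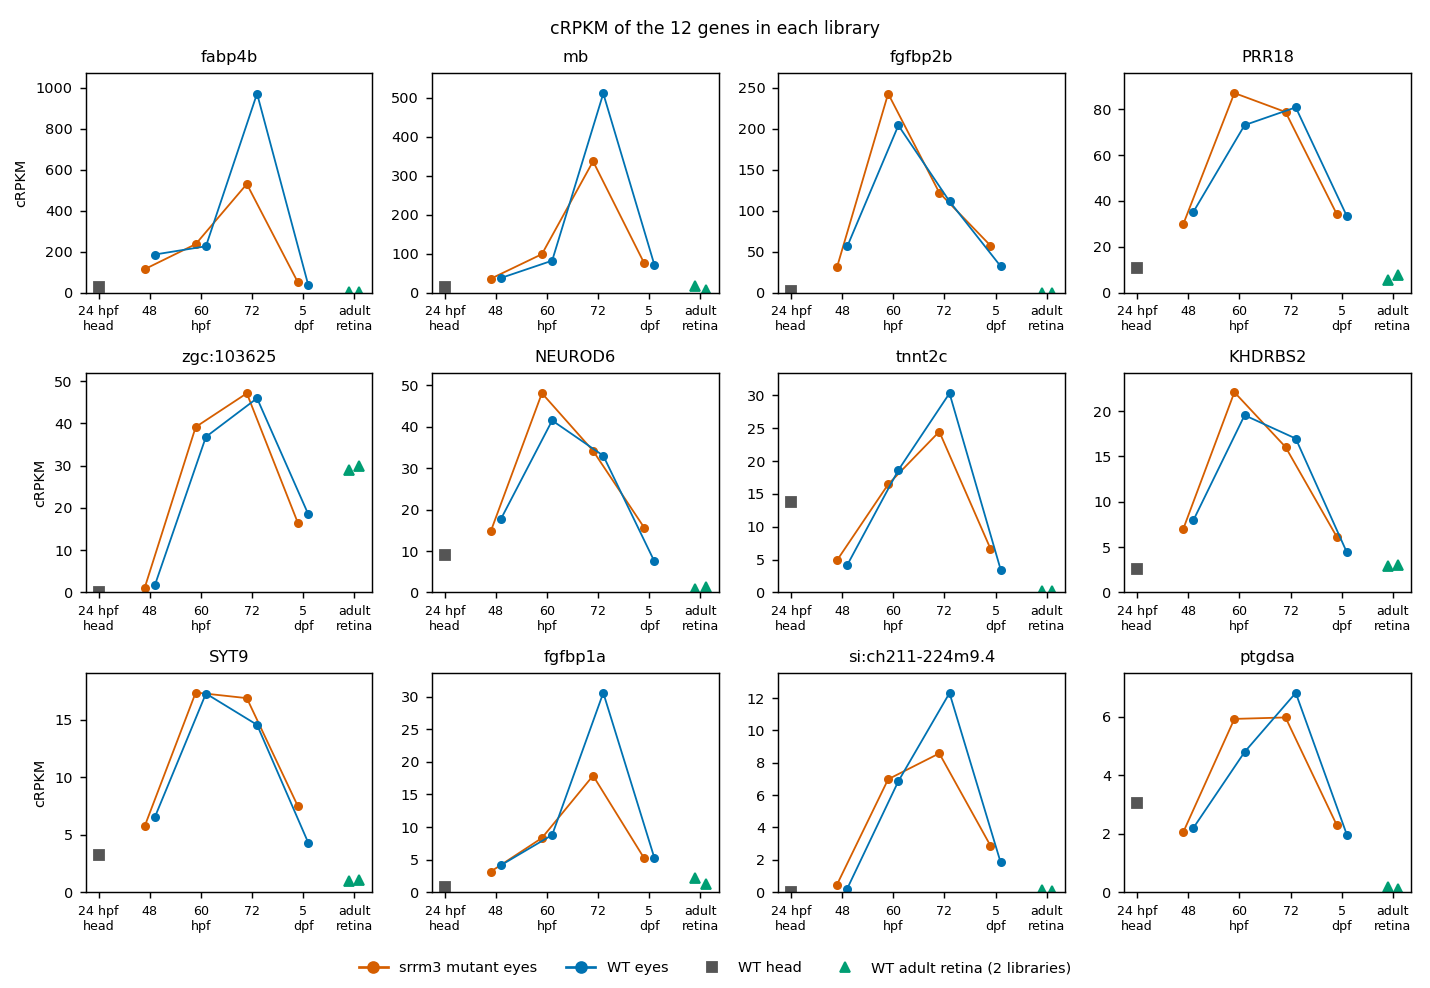
Each panel plots the cRPKM of 1 of the 12 genes (vertical axis, from 0) against age and tissue (horizontal axis); circles joined by lines are single eye libraries of srrm3 mutant and WT fish, the square is the WT head and the triangles are the 2 adult WT retinae. All 12 genes stand higher in each 60 and 72 hpf library than at 48 hpf and 5 dpf of the same genotype, and zgc:103625, at 28.9 and 29.9 cRPKM, stands highest of the 12 in the adult.

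The most abundant of the 12 genes carry lipid or oxygen within cells. fabp4b belongs to the fatty acid binding proteins, small cytosolic carriers of lipids. Over the ages from 48 hpf through 60 and 72 hpf to 5 dpf, an order kept for all series below, it had 115, 237, 531 and 50.3 cRPKM in mutant eyes, against 187, 227, 972 and 39.1 in WT eyes. It was highest at 72 hpf in both genotypes, and in that pair the mutant library stood below the WT library. mb encodes myoglobin, the oxygen-storing protein of muscle. Its series was 36.1, 99.1, 337 and 75.9 cRPKM in mutant eyes, against 37.98, 82.3, 511 and 71.4 in WT eyes. The summit again lay at 72 hpf, and the 5 dpf eyes of both genotypes stood above those at 48 hpf. In bulk RNA, a change in the number of cells of a type and a change in RNA per cell cannot be told apart.

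tnnt2c encodes a troponin T, the subunit that ties the troponin complex to tropomyosin on the thin filament of striated muscle. It ran through 4.9, 16.5, 24.5 and 6.68 cRPKM in mutant eyes and through 4.18, 18.6, 30.3 and 3.49 in WT eyes. Each 60 and 72 hpf library stood above 48 hpf and 5 dpf of its genotype, as in all 12 genes, which the choice favours. Both mb and tnnt2c stood on the skeletal muscle list, and the sum of the other 49 measured genes of that list had another course. It was 18332, 8844, 2361 and 9053 cRPKM in mutant eyes, against 10815, 2786, 2951 and 4097 in WT eyes. The muscle sum was thus highest at 48 hpf, where mb and tnnt2c were low, and the excess of the 60 hpf mutant library over its WT partner in that sum had no counterpart of similar size in either gene. Of the 49 genes, 1 was at 0 in each 60 hpf library and none was at 0 at 72 hpf. A sum is weighted towards its most abundant genes and need not describe each gene of the list. Off the list, TNNI2 (ENSDARG00000035958), a troponin I gene, and ACTC1, an actin gene, met the rule in WT eyes only. TNNI2 (ENSDARG00000035958) had 17.95, 57.2, 55.2 and 82.0 cRPKM in mutant eyes, against 16.1, 47.5, 80.4 and 30.6 in WT eyes. It was thus highest at 5 dpf in mutant eyes. ACTC1 had 8.14, 28.9, 15.7 and 13.8 cRPKM in mutant eyes, against 7.87, 21.8, 16.5 and 8.15 in WT eyes. Both genes were picked for meeting the rule in WT eyes, so nothing is read from their course there. Whether the level of muscle in a library had a part in mb and tnnt2c was not tested.

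**Figure D2:**
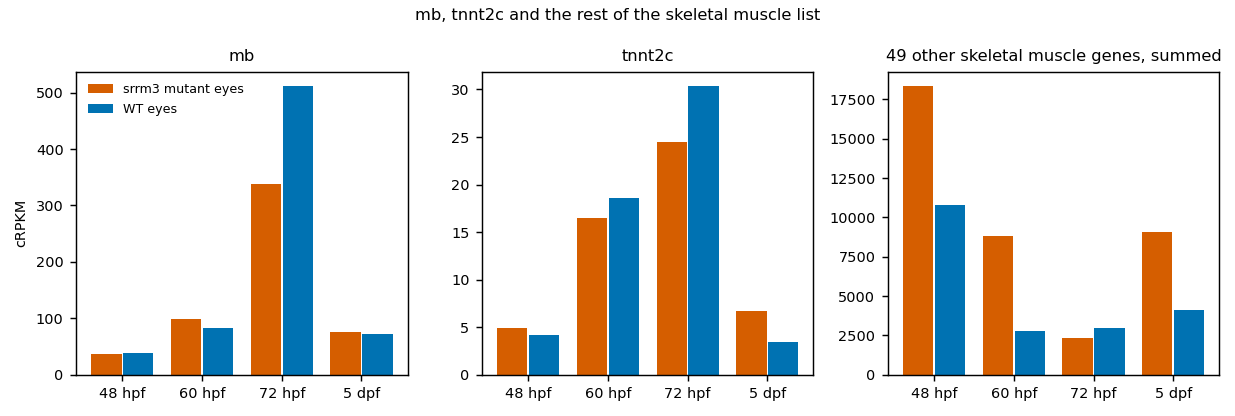
Bars give the cRPKM (vertical axes, from 0, each panel on its own scale) of mb, of tnnt2c and of the sum of the 49 other skeletal muscle genes in single libraries of mutant and WT eyes at 4 ages. The 2 genes peak at 72 hpf, while the muscle sum is highest at 48 hpf, with 18332 in mutant eyes and 10815 in WT eyes.

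Another 3 genes encode secreted proteins. fgfbp2b and fgfbp1a belong by symbol to the FGF binding proteins, some of which release fibroblast growth factors from the extracellular matrix. fgfbp2b had 31.3, 243, 122 and 57.6 cRPKM in mutant eyes, against 56.5, 204, 111 and 32.3 in WT eyes. fgfbp1a was lower, with 3.16, 8.32, 17.9 and 5.2 cRPKM in mutant eyes, against 4.15, 8.78, 30.6 and 5.24 in WT eyes. The 2 relatives shared the window but not the summit, with fgfbp2b highest at 60 hpf and fgfbp1a at 72 hpf in both genotypes. ptgdsa encodes a lipocalin-type prostaglandin D synthase, a secreted enzyme that also binds small lipids. Its series of 2.05, 5.92, 5.97 and 2.3 cRPKM in mutant eyes, against 2.2, 4.79, 6.81 and 1.96 in WT eyes, was the lowest of the 12 at the peak. It rested there on 176 to 228 counts per library.

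The neuronal genes form the next group, and all 3 were highest at 60 hpf. NEUROD6 (ENSDARG00000020794) encodes a basic helix-loop-helix factor that marks a class of amacrine cells in the mouse. It had 14.8, 48.1, 34.2 and 15.7 cRPKM in mutant eyes, against 17.8, 41.5, 33.0 and 7.49 in WT eyes. SYT9 (ENSDARG00000003994) encodes a synaptotagmin, a calcium sensor for vesicle release. It had 5.71, 17.4, 16.9 and 7.46 cRPKM in mutant eyes, against 6.51, 17.3, 14.6 and 4.31 in WT eyes. KHDRBS2 encodes an RNA-binding protein of the STAR family, which controls alternative splicing of neuronal transcripts in the mouse. It had 7.0, 22.1, 16.0 and 6.16 cRPKM in mutant eyes, against 7.98, 19.5, 16.97 and 4.42 in WT eyes. The genotypes lay close at 60 and 72 hpf for all 3 and farther apart at 5 dpf, where the mutant library was the higher in each case.

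The last 3 genes have no role given here. PRR18, whose name stands for a proline-rich protein, had 29.9, 87.0, 78.8 and 34.4 cRPKM in mutant eyes, against 35.3, 73.0, 80.8 and 33.4 in WT eyes. Its values at 60 and 72 hpf formed a plateau, and the ages on either side of it were nearly level with each other. zgc:103625, which RefSeq also lists as mettl26b, had 1.01, 39.1, 47.1 and 16.4 cRPKM in mutant eyes, against 1.67, 36.8, 45.9 and 18.6 in WT eyes. At 48 hpf it rested on 34 counts in mutant eyes and 59 in WT eyes. si:ch211-224m9.4 was also near 0 at 48 hpf, with 0.47, 6.98, 8.58 and 2.88 cRPKM in mutant eyes, against 0.22, 6.86, 12.3 and 1.84 in WT eyes. For both genes the 5 dpf eyes stood above the 48 hpf eyes, and with TMM or DESeq2 scaling factors applied to the cRPKM values zgc:103625 no longer met the rule. Over the 12 genes, 5 dpf stood above 48 hpf for 10 in mutant eyes and for 4 in WT eyes. The 2 ages belong to different library sets, and the share of all genes is not given here, so nothing is read from these counts. The 5 dpf mutant library is the one with the pancreas transcripts, and its part in the counts was not tested.

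Several genes met the rule narrowly. The 3 members just inside had peak ratios, taken as the smaller of the mutant and WT values, of 2.04 for NEUROD6 (ENSDARG00000020794), 2.1045 for ptgdsa and 2.14 for SYT9 (ENSDARG00000003994). The 3 genes just outside had 1.98 for ENSDARG00000091579, 1.97 for SERP2 (ENSDARG00000094003) and 1.93 for defbl1. The highest ratios were 3.2 for fabp4b, 2.85 for mb and 2.80 for tnnt2c. Of 10829 genes with a mean of at least 5 in both genotypes the 12 made up 0.111%, whereas 680 were at least 2 times their 48 hpf value and 546 at least 2 times their 5 dpf value.

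The rule used the mean of 60 and 72 hpf and not their difference, but it drew on the same libraries and so shaped this contrast too. With 60 hpf alone as the peak 7 of the 12 members would have met it, with 72 hpf alone 10, and 5 would have met it both ways. mb, fabp4b and fgfbp1a met it through 72 hpf and not at 60 hpf alone, whereas fgfbp2b and NEUROD6 (ENSDARG00000020794) met it through 60 hpf and not at 72 hpf alone. The tests of 72 over 60 hpf are therefore given as a description of the members and not as support independent of their choice. mb, fabp4b and fgfbp1a passed as higher at 72 hpf, and no member passed as lower. In a fit over the 8 eye libraries with age and genotype as terms, the log2 fold change of 72 over 60 hpf was 2.097 ± 0.20 for mb (SE; edgeR quasi-likelihood, Benjamini-Hochberg adjusted p = 0.00941). That of fabp4b was 1.53 ± 0.25, with an edgeR adjusted p of 0.0350, and that of fgfbp1a was 1.35 ± 0.21, with an edgeR adjusted p of 0.0294. All 3 were higher at 72 hpf in both genotypes. Over all 21829 genes tested, 453 rose (2.08%) and 295 fell (1.35%), and nothing is read from the members' count beside these shares.

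The other 9 members did not pass. fgfbp2b had the lowest value, at −1.04 ± 0.30 with an edgeR adjusted p of 0.0909. The 3 neuronal genes lay between −0.52 and −0.25 with edgeR adjusted p-values from 0.118 to 0.423, each lower at 72 hpf in both genotypes. tnnt2c, at 0.54 ± 0.23 with an edgeR adjusted p of 0.193, had the highest value among the rest, and si:ch211-224m9.4, zgc:103625, ptgdsa and PRR18 lay between −0.11 and 0.49. In the plain values 7 members were higher at 72 hpf in both genotypes, 4 were lower in both and 1, PRR18, was opposite between them.

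The mutant and WT libraries of an age stand in for replicates in that fit, whose genotype term takes out a constant difference between them. Its p-values therefore rest on how that difference varied between ages, and not on the spread between replicates of a genotype. Without the 5 dpf pair, tnnt2c also rose (edgeR adjusted p = 0.0212), and fgfbp2b (0.0259), NEUROD6 (ENSDARG00000020794, 0.0172) and KHDRBS2 (0.0315) fell, where 11.2% of all genes rose and 11.2% fell. The call of mb was lost without the 60 hpf mutant library (edgeR adjusted p = 0.209), the 60 hpf WT library (0.376) or the 48 hpf pair (0.0526). Those of fabp4b and fgfbp1a were lost in each of these and also without the 72 hpf WT library or either 48 hpf library. By limma on log2(cRPKM + 1), mb passed (limma adjusted p = 0.0482) while fabp4b (0.0668) and fgfbp1a (0.0525) did not, and without a filter on low values none of them did. With a pseudocount of 0.1, mb (limma adjusted p = 0.0319) and fgfbp1a (0.0475) passed and fabp4b (0.0617) did not. DESeq2 called all 3 and also the lower 72 hpf level of fgfbp2b (DESeq2 adjusted p = 0.00971). Other lists moved with the same contrast: 18 of 35 tested circadian clock genes rose, as did 10 of 20 genes of the visual cycle and pigment epithelium, 7 of 15 melanin genes and 9 of 39 epidermis and keratin genes, and none on these lists fell. In the other direction, 5 of 21 retinal ganglion cell genes fell (list median −0.59), as did 4 of 33 cartilage genes (−0.50) and 2 of 22 amacrine and horizontal cell genes (−0.34). So did 2 of 19 lens fibre genes (−0.55), 2 of 25 cell cycle genes (−0.48) and 2 of 28 synapse and neuronal activity genes (−0.15). None on these lists rose. Of the 50 skeletal muscle genes tested, mb was the 1 that rose, and the list's median was −0.42. The part of these tissues and of the clock in the members' difference between 60 and 72 hpf was not tested.

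**Figure D3:**
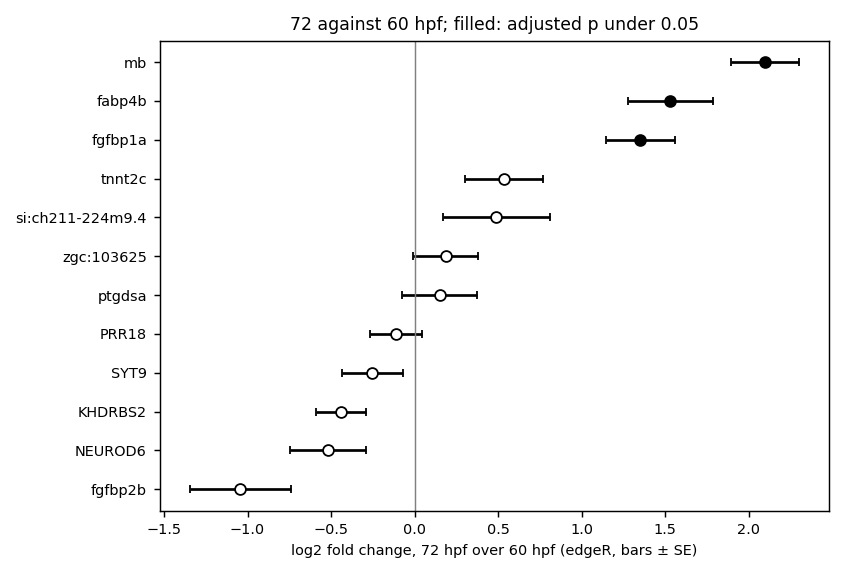
Points give the log2 fold change of 72 over 60 hpf for the 12 genes (horizontal axis) with bars of 1 SE, from the edgeR fit over 8 eye libraries; filled points have an adjusted p under 0.05. mb at 2.097, fabp4b at 1.53 and fgfbp1a at 1.35 are filled, and fgfbp2b lies lowest at −1.04 without passing.

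No difference with the mutation common to the 4 ages was detected in any member. The demand that both genotypes meet the rule in these same libraries limits how far they could differ. A difference at 1 age only, or of opposite sign between ages, was not tested. For fgfbp2b the log2 ratios of mutant over WT were −0.83, 0.25, 0.13 and 0.81 from 48 hpf to 5 dpf, while the fitted value was −0.05. Fitted over the 4 ages, 0 of the 12 genes passed, beside 1 of 21829 genes in all (0.00458%), so that the threshold was hardly ever met in this design. That 1 gene, higher in the mutant, is on the exocrine pancreas list, whose genes summed to 5722 cRPKM in the 5 dpf mutant library. The lowest fitted log2 fold changes of mutant over WT were −0.46 ± 0.15 for fgfbp1a and −0.43 ± 0.18 for fabp4b, both with an edgeR adjusted p of 0.881. These were the 2 members with an unadjusted p under 0.05, as 1074 of all genes had (4.92%). DESeq2 likewise called no member, although it gave no adjusted p to fgfbp1a, si:ch211-224m9.4 and ptgdsa. The highest value was 0.12 ± 0.16, for NEUROD6 (ENSDARG00000020794), and the median of the 12 was −0.06, beside −0.01 for all genes. A p above the threshold does not show that the genotypes were alike.

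In single pairs no member differed by 2-fold on the cRPKM + 1 scale, where 0.676% of genes with at least 5 cRPKM in either library did at 48 hpf, 1.59% at 60 hpf, 0.563% at 72 hpf and 7.77% at 5 dpf. The choice sets this in part, since a gene raised in 1 genotype at 48 hpf or 5 dpf, or high at the peak in 1 genotype only, could fail the rule, and nothing is read from the members' count. At 72 hpf the members farthest from 0 were the 3 that rose between 60 and 72 hpf, with log2 ratios of mutant over WT of −0.87 for fabp4b, −0.74 for fgfbp1a and −0.60 for mb. At 48 hpf fgfbp2b stood at −0.83 and fabp4b at −0.70. At 5 dpf 10 of the 12 were higher in the mutant library, led by NEUROD6 (ENSDARG00000020794) at 0.97, fgfbp2b at 0.81 and tnnt2c at 0.77. By age the median of the members was −0.20, 0.13, −0.12 and 0.38, and that of all genes was 0.05, 0.07, 0.06 and 0.22. There is no replicate of any pair, so none of these differences has an error.

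**Figure D4:**
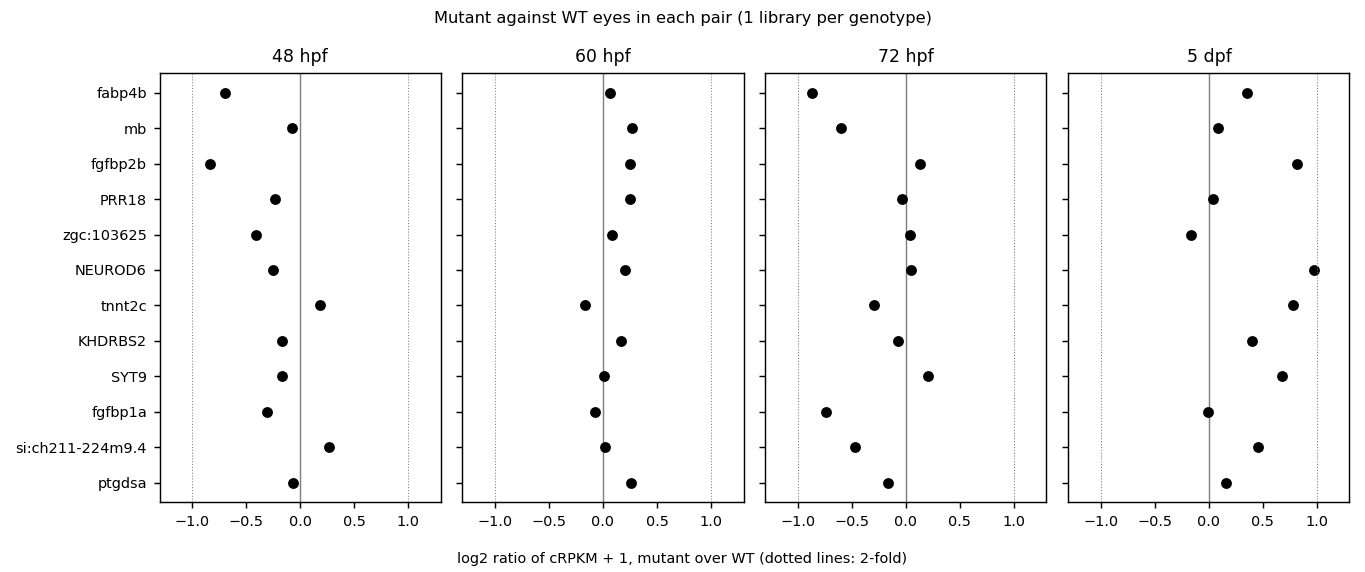
Each point is the log2 ratio of mutant over WT cRPKM + 1 (horizontal axis) for 1 gene (row) in the pair of libraries of 1 age (panel); dotted lines mark 2-fold. No point passes 2-fold, and the farthest are fabp4b at −0.87 in the 72 hpf pair and NEUROD6 at 0.97 in the 5 dpf pair.

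The adult retina held little of most members. fgfbp2b, with 0.22 and 0.08 cRPKM in the adult libraries, and fabp4b, with 5.48 and 5.66, lay farthest below the WT mean of 60 and 72 hpf. mb had 18.5 and 8.03, the widest gap in cRPKM between the adult libraries, and nothing in the labels says that these came from separate animals. si:ch211-224m9.4 and ptgdsa rested on 4 to 10 counts per adult library. The exception was zgc:103625, at 28.9 and 29.9, above the 5 dpf WT eyes at 18.6 and below the 72 hpf WT eyes at 45.9. Among the neuronal genes KHDRBS2 kept 2.92 and 3.08, while NEUROD6 (ENSDARG00000020794) had 0.8 and 1.24 and SYT9 (ENSDARG00000003994) 0.93 and 1.09. PRR18 had 5.62 and 7.87, fgfbp1a 2.25 and 1.28, and tnnt2c 0.2 and 0.27. Set against the WT mean of 60 and 72 hpf, 11 of 12 were at least 2-fold lower in the adult, with a median log2 ratio of −3.28. Of all 10999 genes with such a mean of at least 5, 34.3% were as low and the median was −0.58. The members had been chosen for a high mean at 60 and 72 hpf, and the adult samples are retina rather than whole eye and belong to the other library set, so nothing particular to the members is read from this.

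In the 24 hpf head, 10 of 12 were at least 2-fold below that same mean, as were 21.2% of all 10999 genes. tnnt2c, at 13.8 cRPKM, and ptgdsa, at 3.04, were the exceptions, and both stood higher in the head than in 48 hpf WT eyes, with 4.18 and 2.2. The neuronal genes had 9.15 for NEUROD6 (ENSDARG00000020794), 3.26 for SYT9 (ENSDARG00000003994) and 2.63 for KHDRBS2, all under their 48 hpf eye levels. The abundant fabp4b had 26.95, mb 15.0, PRR18 10.96 and fgfbp2b 2.3 in the head, and fgfbp1a had 0.73. zgc:103625 had 7 counts and si:ch211-224m9.4 none. These were also the 2 genes near 0 in the 48 hpf eyes. The head is another tissue, so the difference from the eyes is one of tissue as well as of age.

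Close relatives mostly did not share the window, as was so for nearly all genes. Of 10829 genes with a mean of at least 5 in both genotypes, 0.111% met the rule. The share of all genes with a ratio under 1 is not given here, so nothing particular to the families is read from their counts. The families were drawn up by gene symbol once the 12 were known. The ratio given is the smaller of the mutant and WT ratios that the rule tests. Some relatives lay below the rule's mean of 5 and could not have met it. At 60 and 72 hpf SYT15 had 0.21 to 0.41 cRPKM, and xgb, a relative of myoglobin, had 0.13 to 0.41. The pseudocount of 1 also draws the ratios of such low genes towards 1. All 23 other synaptotagmins had a ratio under 1, among them the other SYT9 (ENSDARG00000029239) at 0.54, whose 5 dpf level was 17.3 cRPKM in mutant eyes and 21.7 in WT eyes. All 7 other troponin T genes lay between 0.14 and 0.63. ptgdsb.1, another prostaglandin D synthase, lay at 0.14, with 215 cRPKM in mutant eyes and 118 in WT eyes at 5 dpf. ptgdsb.2 lay at 0.06, with 93.5 in mutant eyes and 56.7 in WT eyes at 5 dpf. The 4 relatives of myoglobin, NGB, CYGB, cygb2 and xgb, lay between 0.34 and 0.87.

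Nearer to the rule were FABP7 (ENSDARG00000007697), a fatty acid binding protein of radial glia, at 1.51, fabp4a at 1.41, NEUROD2 at 1.27, KHDRBS3 at 1.25 and the other NEUROD6 (ENSDARG00000040008) at 1.06. FABP7 (ENSDARG00000007697) was abundant, with 2578 cRPKM in mutant eyes and 3607 in WT eyes at 72 hpf. Another fatty acid binding protein gene, fabp10a, met the rule in WT eyes only, with a ratio of 4.28 there and 0.15 in mutant eyes. It had 1.02, 2.31, 6.75 and 36.19 cRPKM in mutant eyes, against 1.75, 22.35, 2.62 and 2.15 in WT eyes. Each FGF binding protein among the members adjoins another FGF binding protein gene that was outside the group: in RefSeq's GRCz12tu annotation fgfbp2b lies next to fgfbp1b, with a ratio of 0.52, and fgfbp1a next to fgfbp2a, with 0.79. In the test of 72 over 60 hpf, the families held no call other than those of fabp4b, fgfbp1a and mb. Reads of near-identical paralogs could be split between them, and no source used here says whether the counting was strand-specific.

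**Figure D5:**
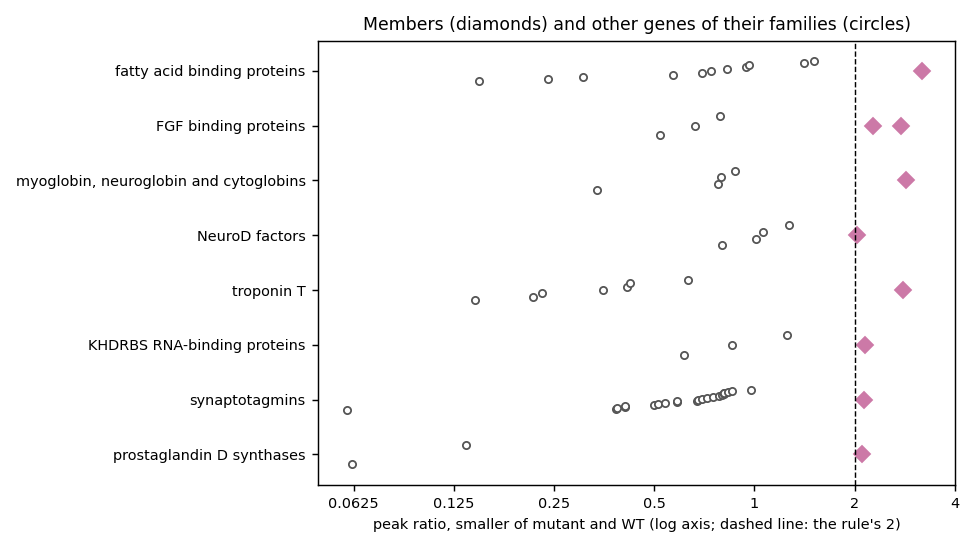
Diamonds are the members with a named family and circles the other measured genes of that family; the horizontal log axis gives the peak ratio, the smaller of the mutant and WT values, and the dashed line the rule's 2. By this smaller value the circles reach 1.51 at most, and all 23 other synaptotagmins lie under 1. fabp10a, which met the rule in WT eyes only, lies at 0.15. The share of all genes under 1 is not given, so nothing particular to a family is read from this.

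The demand that both genotypes peak shaped the list. In mutant eyes 34 genes met the rule and in WT eyes 62, so that 22 met it in mutant eyes only and 50 in WT eyes only. Low counts limit some of these: 7 of the 22 and 7 of the 50 had under 20 counts in a 60 or 72 hpf library of that genotype. Of the 50, 44 were higher in mutant than in WT eyes at 5 dpf and 23 at least 2-fold so, and 27 would have met the rule in both with the 5 dpf WT library in place of the mutant one. Among 12560 genes with 5 cRPKM or more in either 5 dpf library, the mutant library exceeded the WT one 2-fold or more for 659. The WT library exceeded the mutant one by as much for 317, and the all-gene median log2 ratio of mutant over WT was 0.22. A gene can fail in the mutant by being high at 5 dpf, so the direction among the 50 follows in part from the choice. Cartilage matrix genes were the most frequent of the fixed lists among the 50, with 6 of 34. The 50 could come only from the 10999 genes with a WT mean of at least 5. How many of the 34 reached that mean is not given here, so no enrichment is read from this count. COL2A1 (ENSDARG00000069093), a collagen II gene, had 156, 587, 341 and 434 cRPKM in mutant eyes, against 166, 576, 245 and 155 in WT eyes. MATN1, which encodes the cartilage protein matrilin, had 0.58, 279, 225 and 216 cRPKM in mutant eyes, against 0.65, 324, 187 and 89.4 in WT eyes. In both, the mutant and WT values lay nearer to each other at 48 and 60 hpf than at 5 dpf. The collagen genes COL9A1, COL9A2, col9a3 and COL11A2 had 61.5 to 183 cRPKM in mutant eyes at 5 dpf, against 22.0 to 66.6 in WT eyes. The cartilage list as a whole summed to 2148 cRPKM in the 5 dpf mutant library, the one with the exocrine pancreas transcripts, and to 959 in the WT library of that age. The part of other tissue carried in that library was not tested.

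Of the 38 lists of cell types, tissues and processes drawn up for the eye and its surroundings, the skeletal muscle list alone held any of the 12 genes, with 2 of its 51. None of the rod, cone, bipolar, amacrine, ganglion cell, Müller glia, lens or pigment epithelium genes on these lists was a member. With 12 members among 29387 genes, most lists of such a size would hold none, so nothing is read from this absence. The melanosome genes TYRP1 (ENSDARG00000056151) and pmelb met the rule in WT eyes only. At 72 hpf TYRP1 (ENSDARG00000056151) had 445 cRPKM in mutant eyes and 623 in WT eyes, and pmelb had 163 in mutant eyes and 221 in WT eyes. For both the mutant value was the lower, which follows in part from naming genes that met the rule in WT eyes only. The difference has no replicate, and nothing is read from it.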

How the data were processed

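Per library, 11 in all, the authors deposited raw counts of reads per gene and cRPKM, an RPKM-type value scaled by length and depth. The build was danRer10, as the submitters' processing notes list it; no source used here names the aligner, the counter or the correction behind the letter c. Of 31848 genes, 2461 without a value were dropped. Symbols came from a table of gene names, which named 87.4% of the rest. The rule was applied to the deposited cRPKM.

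Tests used the deposited counts of the 8 eye libraries with edgeR 4.0.16 in R 4.3.3: TMM scaling, filterByExpr, age as a factor plus genotype, robust quasi-likelihood fits with 3 residual degrees of freedom, Benjamini-Hochberg adjustment over all genes and a threshold of 0.05. The SE is the log2 change over the square root of F, hence approximate. DESeq2 1.42.0 and limma 3.58.1 on log2 cRPKM served as alternatives. The fits were also run on simulated counts with a fixed dispersion and no age differences beyond those planted in some genes. That run does not show how they perform on the real libraries. Ratios of single libraries use cRPKM + 1, which understates changes of low genes. Members, lists and families were chosen with earlier results of these data known. All 12 members passed the filter on low counts. Genes named are the 12 members, their families, those at the rule's threshold and those on a fixed list. TNNI2 (ENSDARG00000035958) and ACTC1 are on none of these and were picked from the genes that met the rule in WT eyes only.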

Additional observations from a re-analysis of the deposited data

Results flagged for a closer look

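PRR18 is listed because its change from 60 to 72 hpf had opposite signs in the genotypes: its log2 ratio of 72 over 60 hpf on the cRPKM + 1 scale was −0.14 in mutant and 0.14 in WT eyes. Each value compares 1 library with 1 other, and the difference between the genotypes was not tested.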

How the results depend on the processing

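The size of the group depended on its thresholds: 103 genes met the rule at 1.5 times and 1, fabp4b, at 3 times, 20 with a pseudocount of 0.1, 62 in WT and 34 in mutant eyes alone, 19 with 60 hpf and 29 with 72 hpf as the peak, 680 against 48 hpf and 546 against 5 dpf alone. With the 5 dpf WT library in place of the mutant one, an alternative chosen after seeing the data, there were 39. Rescaling kept 11 of the 12 members in a group of 13, and all 12 had at least 20 counts in each peak library. The genotype test called 1 gene higher and 0 lower by edgeR, 3 higher without a filter, 9 higher and 53 lower by DESeq2, 0 by limma, and 0 to 21 higher and 0 to 10 lower with libraries or pairs left out. No member was called in any of these. From 60 to 72 hpf, 453 genes rose and 295 fell by edgeR, 1440 and 1423 by DESeq2, 477 fell without a filter, and limma gave 103 and 25 at a pseudocount of 0.1, 15 and 2 at 1, and 3 and 0 without a filter. With libraries or pairs left out, 0 to 2400 rose and 0 to 2374 fell. Members that rose numbered 3, 2 by limma at a pseudocount of 0.1, 1 and 0 at a pseudocount of 1 with and without the filter, and 0 to 4 with libraries left out. Members that fell numbered 0, then 1 by DESeq2 (fgfbp2b) and 0 to 3. The adult median log2 ratio was −4.55 with a pseudocount of 0.1 and −3.37 to −3.23 with 1 adult library. With age as a term, the fit already compared mutant and WT libraries within an age. No further pairing was possible, because the libraries share no replicate series (1 library per group). Without the 60 or the 72 hpf pair the contrast of these ages could not be fitted. The cause of these shifts was not tested.

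Of the members' fitted genotype values under the alternatives, 39 changed sign and 177 kept it, and none was called. By limma at a pseudocount of 1, with or without the filter, fgfbp2b stood at 0.09, PRR18 at 0.0052, KHDRBS2 at 0.0816, si:ch211-224m9.4 at 0.0666 and ptgdsa at 0.0452. At 0.1 they stood at 0.0902, 0.0044, 0.0945, 0.2403 and 0.059. With libraries or pairs left out, the genotype value spanned −0.2248 to 0.2332 for fgfbp2b, −0.0738 to 0.2685 for NEUROD6 (ENSDARG00000020794), −0.179 to 0.1635 for tnnt2c, −0.1053 to 0.0196 for KHDRBS2, −0.0622 to 0.1652 for SYT9 (ENSDARG00000003994) and −0.2189 to 0.2581 for si:ch211-224m9.4. Likewise 72 over 60 hpf spanned −0.2969 to 0.086 for PRR18, −0.0048 to 0.3861 for zgc:103625 and −0.0359 to 0.3439 for ptgdsa, and limma gave PRR18 0.0006 at a pseudocount of 1 and 0.0007 at 0.1.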
